A study of Mus musculus with 9 samples.

Results

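CTCF peaks were examined in a 700 kb stretch of mouse chromosome 4 (build mm9) that holds the genes Hivep3, Edn2 and Foxo6. The members are the peaks of the 8 CTCF lists that overlap this stretch, merged wherever peaks of different libraries shared at least 1 bp. This gave 26 regions, of 39574 in the whole series, which span chr4:119405985-120041712. The stretch had been picked from results of the same lists, in which it held a dense run of regions with a peak only in the deficient cells at 0 h. The genotype difference at 0 h is therefore given as a description, with no test.

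The cells were naive CD8+ T cells sorted from spleen as GFP+ TCRbeta+ CD62Lhi CD44lo-med CD8+. Mice of both genotypes carried hCD2-Cre, a Cre driven in lymphoid cells by human CD2 regulatory sequence, and the Rosa26-lsl-GFP reporter, which marks cells in which Cre has acted. They were wild type for Tcf1 and Lef1 (WT), or floxed for both and hence Tcf1-/-Lef1-/- in the sorted cells (DKO). Cells were profiled by CUT&RUN, in which a nuclease tethered to an antibody releases DNA around the bound protein, either before culture (0 h) or following 72 h in IL-7 plus IL-15. There were 2 CTCF libraries in each of the 4 groups, and a single IgG library from WT cells at 0 h. The labels used here do not say whether replicates came from separate animals, nor give sex or age, and CTCF peaks do not check the deletion of Tcf1 and Lef1.

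CTCF is a zinc-finger protein that binds a long, directional DNA motif, halts the cohesin complex as it extrudes chromatin loops, and so marks the borders of many contact domains. Tcf1 and Lef1 are HMG-box factors that act in the development and maintenance of T cells. Hivep3, also called Schnurri-3 or KRC, encodes a large zinc-finger protein known in T cells for raising Il2 expression together with AP-1, and in bone for restraining osteoblasts. Edn2 encodes endothelin-2, a vasoactive peptide, and Foxo6 a forkhead factor best known from the brain. In the RefSeq order of genes on GRCm38, 3 non-coding genes lie between Hivep3 and Edn2 and 2 between Edn2 and Foxo6. An annotation of mm9 was not used here, so no region is assigned to an exon, intron or promoter of these genes.

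The lists differed in length over the series. At 0 h they held from 30309 to 32587 peaks, and at 72 h 17335 (WT replicate 1), 26630 (WT replicate 2), 10339 (DKO replicate 1) and 16234 (DKO replicate 2). Read totals are not known from these files, so an absent peak shows only that none was listed. No CTCF list held a peak of a fold under 4, fold being the enrichment over local background given by the authors' peak caller. The IgG list, from WT cells at 0 h, had 0 peaks in the stretch. Its length is not given here, and it shows no background for DKO cells or for 72 h.

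DKO cells had more CTCF peaks around Hivep3, Edn2 and Foxo6 than WT cells at 0 h. The stretch held 12 and 11 peaks in the WT libraries at 0 h and 23 in each DKO library. All 12 regions with a WT peak at 0 h were listed in both DKO libraries too, and 13 more regions had a DKO peak alone, in 1 or both libraries. Of the 26 regions, 9 (34.6%) were DKO-only at 0 h, meaning listed in the DKO pair of libraries and absent from the WT pair, against 2.73% of all regions of the series. None was WT-only at 0 h, against 4.88% of all regions. These counts and shares restate the choice of the stretch, and nothing is read from them. How often a WT peak was also listed in DKO over the whole series is not given here.

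**Figure D1:**
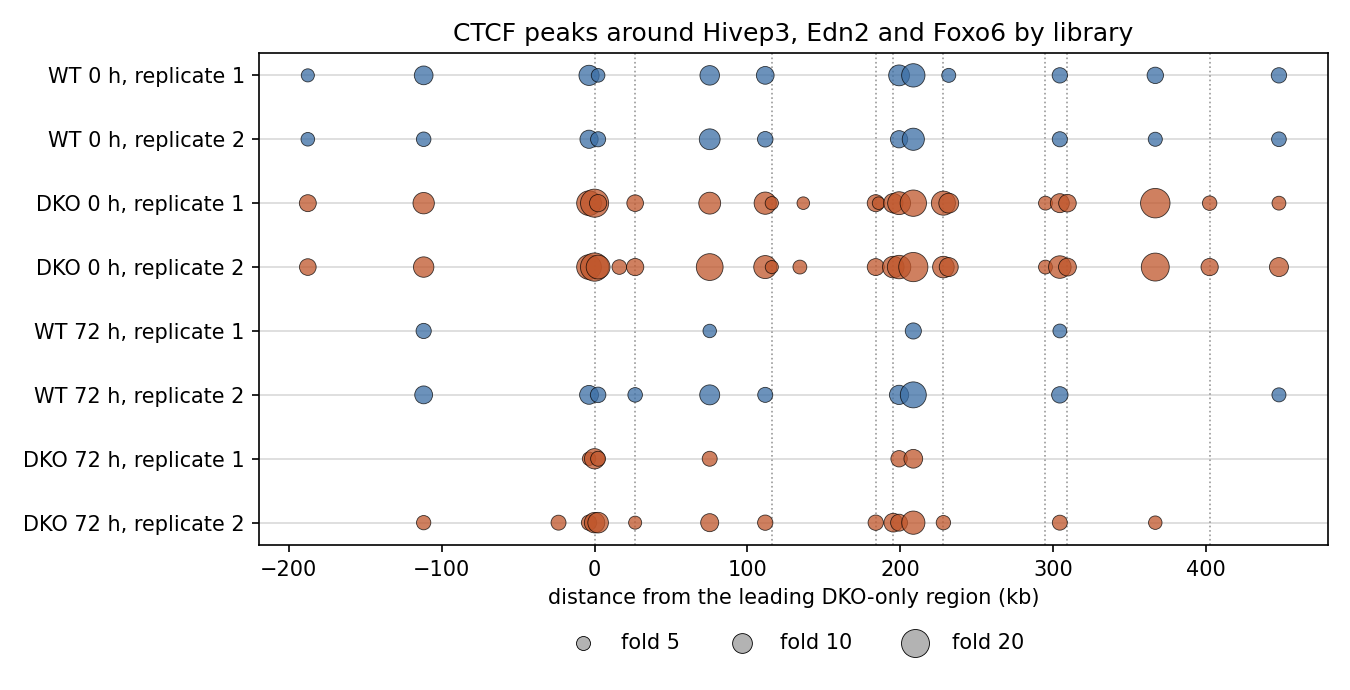
Each row is a library and each circle a CTCF peak, placed by its distance in kb from the leading DKO-only region (0 on the x axis), with an area proportional to the authors' fold enrichment. WT libraries are blue and DKO libraries orange, and dotted lines mark the 9 regions that were DKO-only at 0 h. The DKO rows at 0 h hold 23 peaks each, the WT rows 12 and 11.

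The DKO-only regions were led by region 5 of the stretch (regions are numbered 1 to 26 along the chromosome), at chr4:119593485-119594161. Its fold was 20.2 and 20.4 in the DKO libraries at 0 h, which placed it at rank percentiles of 75.4 and 74.7 within those lists by the authors' p-value. At 72 h its fold was 10.6 and 10.7 in the DKO libraries, with percentiles of 81.7 and 73.3. No WT library had a peak there at either time. For scale, 80.3% and 82.4% of the WT peaks at 0 h had a fold below 20.2, and 72.4% and 59.0% of those at 72 h had a fold below 10.6. These shares do not show whether a weaker WT signal lay there unlisted. The 4 summits of region 5 lay within 36 bp of each other. It stood between a pair of sites shared by both genotypes, 2.93 kb after region 4 and 1.55 kb before region 6.

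After it, regions 19, 16 and 14 stood out from the other DKO-only regions by rank. Region 19, chr4:119821523-119822452, had folds of 14.8 and 11.9 in DKO at 0 h. Region 16, chr4:119788803-119789628, had 9.66 and 11.9. Region 14, chr4:119777336-119778123, had 7.42 and 7.38, but its rank percentiles were 55.6 and 55.3. All 3 were also listed in DKO replicate 2 at 72 h, at folds of 5.30 for region 19, 9.02 for region 16 and 6.03 for region 14, and in no WT library.

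The remaining 5 DKO-only regions were weaker. Region 23, chr4:119902892-119903373, had folds of 7.94 and 8.17, and region 8, chr4:119620048-119620668, had 7.08 and 7.63. Region 25, chr4:119995863-119996416, had 5.36 and 7.63. Close to the lowest fold in the lists were region 21, chr4:119888481-119889038, with 4.93 and 4.94, and region 11, chr4:119709581-119709933, with 4.50 and 4.40. Apart from region 25, the replicates of each of these lay close together. Region 8 was the only one of the 9 DKO-only regions with a WT peak at 72 h, of fold 5.43 in WT replicate 2, beside 4.37 in DKO replicate 2. Over the 9 regions the median fold was 7.42 in DKO replicate 1 and 7.63 in replicate 2.

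The peak names in each list end in a number that rises with position, and from 5.13% to 7.38% of the numbers are missing from the 8 lists. A missing number may stand for a peak left out before deposit, but no label states such a step, so the numbers are given as counts only. Across the stretch, 0 numbers were missing from either WT list at 0 h, and 1 from each DKO list at 0 h. At all 9 DKO-only regions the WT peaks listed on each side carried consecutive numbers. Over the 1080 DKO-only regions of the series this held for 667 (61.8%). The 9 are not separate checks, since all follow from the 0 missing WT numbers of the stretch. Regions 11, 14 and 16 lay between the same WT peaks, those of regions 10 and 17. At 72 h, WT replicate 1 lacked 1 number and WT replicate 2 lacked 2 between listed neighbours that enclose regions 23, 24 and 25 (and region 26 in replicate 1). No number was missing at regions 5, 14, 16 and 19 in any WT list.

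Sites shared by the genotypes also had higher folds in DKO than in WT cells at 0 h. Of the 11 regions with a peak in all 4 libraries at 0 h, 10 had both DKO folds above both WT folds, against 28.2% of the 24438 such regions of the series. In 0 of the 11 were both WT folds above both DKO folds, against 15% over the series. The ratio of mean DKO to mean WT fold ran from 1.22 to 3.53 with a median of 1.58, where the median over the series was 1.06. These values come from the contrast that chose the stretch, and fold values of different lists are set side by side here only as a description.

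The widest gap was at region 24, chr4:119960116-119961058. Its fold was 6.89 and 5.09 in the WT libraries and 22.3 and 20.02 in the DKO libraries at 0 h, a ratio of 3.53 that 7 of the 24438 regions reached, this one included. Both DKO values lay far above both WT values. At 72 h the same region had a single peak, of fold 4.66 in DKO replicate 2. Region 6, chr4:119595713-119596547, followed with 4.75 and 5.85 in WT and 7.64 and 14.5 in DKO, where the DKO replicates lay farther apart than the means of the genotypes.

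Of the 9 further regions found in all 4 libraries at 0 h, region 22, chr4:119897821-119898473, had folds of 6.05 and 5.87 in WT and 9.23 and 13.0 in DKO. Region 10, chr4:119704953-119705944, had 8.07 and 6.19 in WT and 12.7 and 13.5 in DKO. Region 4, chr4:119589849-119590553, had 10.4 and 8.48 in WT and 15.7 and 15.7 in DKO. In these 3 regions the genotypes did not overlap, and the ratio of mean folds was 1.87, 1.84 and 1.66.

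The ratio was 1.47 to 1.58 at regions 1, 2, 9, 17 and 18. Region 1, chr4:119405985-119406521, had folds of 4.41 and 4.75 in WT and 7.36 and 7.12 in DKO, and region 2, chr4:119481623-119482425, had 9.0 and 5.43 in WT and 11.7 and 10.7 in DKO. Region 17, chr4:119792629-119793378, had 11.1 and 7.64 in WT and 13.4 and 14.1 in DKO. Region 26, chr4:120041237-120041712, was the exception to the order of the genotypes, with 6.05 and 5.54 in WT and 4.93 and 9.24 in DKO, so that the groups overlapped.

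Only regions 9 and 18 had a peak in all 8 libraries. Region 18, chr4:119801777-119802843, had 0 h folds of 13.98 and 12.6 in WT libraries and 17.8 and 21.8 in DKO libraries, and 72 h folds of 6.67 and 17.3 in WT libraries and 8.99 and 13.8 in DKO libraries. Region 9, chr4:119668718-119669538, had 9.77 and 11.1 (WT) against 12.2 and 18.4 (DKO) at 0 h, and 4.64 and 10.2 (WT) against 5.74 and 8.32 (DKO) at 72 h. At 0 h both regions were higher in the DKO libraries, and at 72 h the genotypes overlapped at both. By mean rank percentile over the libraries that hold them, the top 3 regions of the stretch were region 5 (76.3), region 18 (74.2) and region 14 (56.6). This mean covers different libraries for each region, and region 14 was held by 3 DKO libraries alone. Within the DKO lists at 0 h it ranked below region 24 (79.4 and 74.7), region 4 (60.0 and 59.7) and region 17 (57.4 and 60.1).

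**Figure D2:**
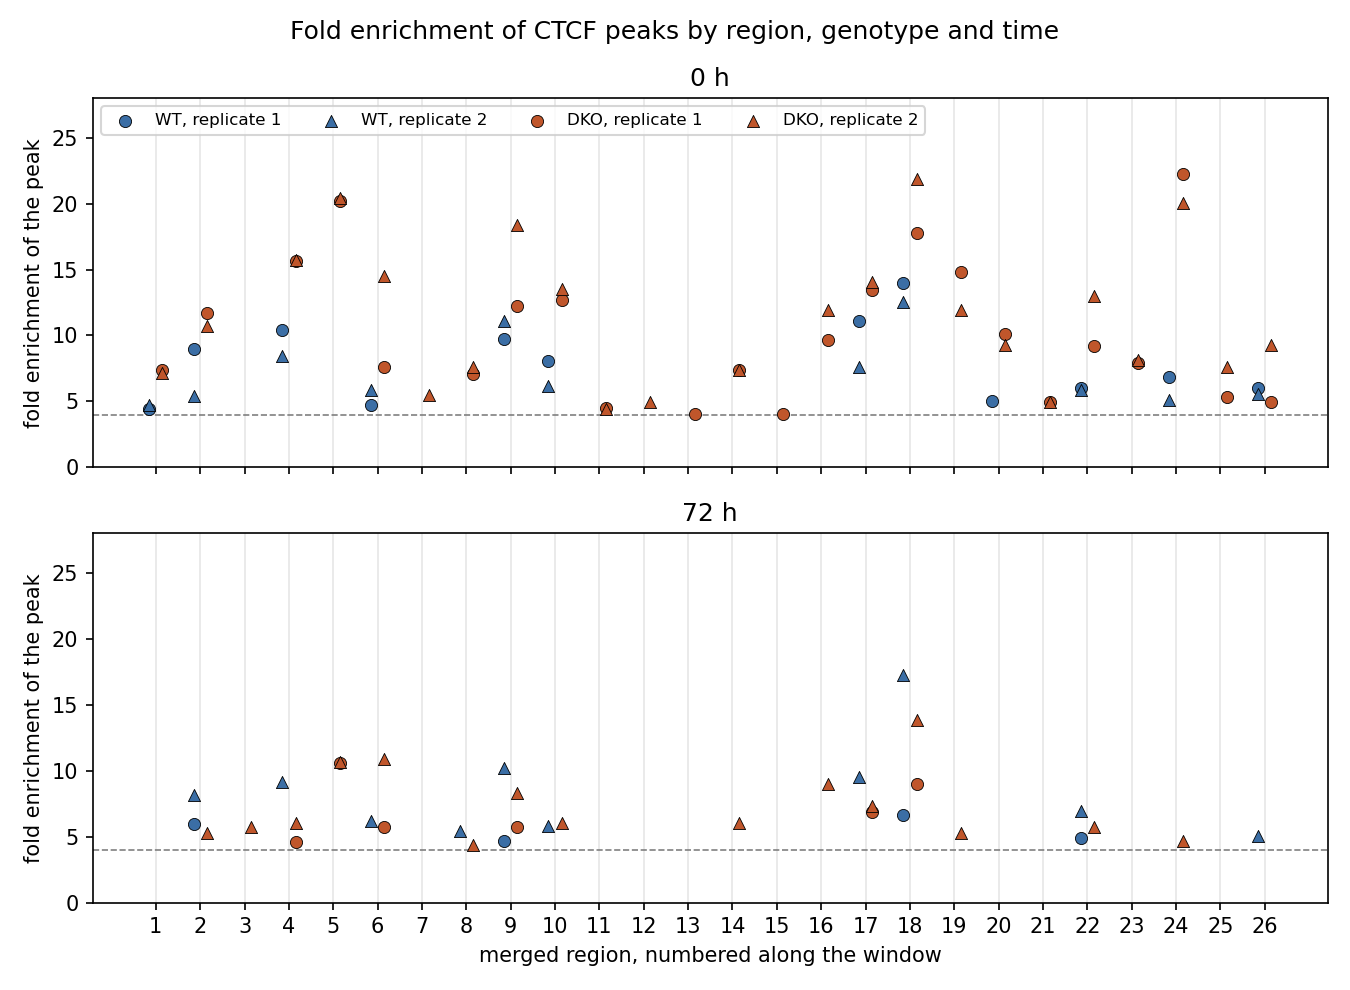
The y axis gives the authors' fold enrichment of each peak and the x axis the 26 merged regions in order along the chromosome, at 0 h above and 72 h below, with circles for replicate 1 and triangles for replicate 2. A missing symbol means that no peak was listed, and the dashed line marks a fold of 4, under which no CTCF list held a peak. At 0 h the DKO symbols of region 24 (22.3 and 20.02) lie far above the WT symbols (6.89 and 5.09), and at 72 h region 5 has DKO symbols alone.

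After 72 h fewer peaks were listed in both genotypes, and DKO cells still had the larger share of their lists in the stretch. WT libraries held 4 and 10 peaks and DKO libraries 6 and 15, although the DKO lists were the shorter ones. Per 10000 listed peaks these numbers come to 2.31 and 3.76 for WT and to 5.80 and 9.24 for DKO. The mean was 3.03 ± 1.02 (SD, n = 2) in WT and 7.52 ± 2.43 (n = 2) in DKO, and both DKO values lay above both WT values. The difference of 4.49 had an exact two-sided permutation p of 0.333, the smallest that 2 libraries against 2 allow. Of 1520 tiles of 700 kb with 10 or more regions, 20.5% had both DKO shares above both WT shares at 72 h. At 0 h the shares were 3.68 and 3.55 in the WT libraries and 7.59 and 7.33 in the DKO libraries, an order seen in 25% of tiles at that time. All 4 DKO shares lay above all 4 WT shares in 2.43% of tiles. Both of these tile counts rest on the 0 h order that chose the stretch, so nothing is read from them.

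With each list shortened to its 10339 strongest peaks, the length of the shortest, 1 peak of the stretch was left in every WT library at both times, in region 18. The DKO libraries kept 3 and 3 at 0 h, in regions 5, 18 and 24, and 6 and 7 at 72 h. At this length 2 regions, 5 and 24, were DKO-only at 0 h, against 9 with the whole lists. At 0 h, 11.1% of the tiles had both DKO counts above both WT counts, and the place of the stretch among them follows from its choice. The 72 h peaks in both DKO libraries were in regions 5, 6, 9, 17 and 18, with region 4 in replicate 1 and regions 14 and 16 in replicate 2. Both DKO counts were above both WT counts at 72 h (difference 5.5, exact two-sided permutation p = 0.333, again the smallest possible), which was so in 9.21% of the tiles. DKO replicate 1 at 72 h was the list that set the length, so all its peaks stayed in.

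By presence alone, few regions separated the genotypes at 72 h. Region 5 was the single DKO-only region at 72 h (3.85% of the 26), against 0.0303% of all regions, and none was WT-only, against 6.37%. Region 5 was also DKO-only at 0 h, the class for which the stretch was chosen. These shares are thus not independent of that choice, and nothing is read from them. Of 10 regions with a WT peak at 72 h, 9 had a peak in at least 1 DKO library, and region 26 (5.06 in WT replicate 2) had none. The matching share over the series is not given here, so nothing is read from this count. Region 3, chr4:119570108-119570382, was listed only in DKO replicate 2 at 72 h, at fold 5.75. Leaving out WT replicate 2 gave 4 DKO-only regions, and the count was 6 without DKO replicate 1 and 4 with the 4 lists of 72 h at equal length (10339 peaks).

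Folds at the regions found in all 4 libraries at 72 h overlapped between the genotypes. These were regions 9 and 18, with ratios of mean DKO to mean WT fold of 0.946 and 0.953. Over the series the median ratio at 72 h was 0.669, and both WT folds were above both DKO folds in 50.6% of such regions, against 0 of these 2. Both DKO folds were above both WT folds in 0.186% of such regions and in 0 of these 2.

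The share of each list in the stretch overlapped between the times within each genotype. In WT its mean was 3.62 ± 0.0923 peaks per 10000 (SD, n = 2) at 0 h and 3.03 ± 1.02 at 72 h. In DKO the mean was 7.46 ± 0.185 at 0 h and 7.52 ± 2.43 at 72 h. Over both genotypes the share was 5.54 ± 2.22 (SD, n = 4) at 0 h and 5.28 ± 3.01 (n = 4) at 72 h, a difference of -0.261. These pooled SDs include the gap between the genotypes. No p-value is given, since the 0 h values entered the choice of the stretch. The difference turned to 1.69 with all 8 lists at 10339 peaks, moved to -1.33 with peaks of −log10 q of 5 or more, and turned to 0.101 and 0.598 without replicate 1 of WT or of DKO at 72 h.

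In WT cells 11 regions had a peak in both libraries at 0 h. Of these, 4 (36.4%) were listed in WT replicate 1 and 9 (81.8%) in WT replicate 2 at 72 h, where the shares over the series were 58.0% and 81.3%. Regions 1 and 24 were found in both WT libraries at 0 h and neither at 72 h (7.69% of the 26 regions, against 13% of all regions), and none was found in both only at 72 h (0.576% of all). These shares also count regions with no WT peak at 0 h. Of the 11 regions alone, 81.8% were listed in at least 1 WT library at 72 h, against 81.9% of such regions over the series. The count of 0 h-only regions in WT was 7 without WT replicate 2 at 72 h, and 0 with the 4 WT lists at an equal length of 17335 peaks.

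In DKO cells 21 regions had a peak in both libraries at 0 h, of which 6 (28.6%) and 14 (66.7%) were listed in the DKO libraries at 72 h, against 36.9% and 57.0% over the series. The 6 regions kept in both were regions 4, 5, 6, 9, 17 and 18. Found only at 0 h were 7 regions (26.9%, against 29.1% of all regions), namely regions 1, 11, 20, 21, 23, 25 and 26, and none only at 72 h (0.116% of all). These shares also count regions not listed in both DKO libraries at 0 h. Of the 21 regions alone, 66.7% were listed in at least 1 DKO library at 72 h, against 57.7% of such regions over the series. This difference was not tested. Region 20, chr4:119825116-119825850, had folds of 10.1 and 9.24 in DKO and 5.03 in WT replicate 1 at 0 h, and no peak at 72 h. The count of 0 h-only regions in DKO was 15 without DKO replicate 2 at 72 h and 1 with the 4 DKO lists at 10339 peaks.

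The stretches of equal length on each side had 0 and 1 DKO-only regions at 0 h, against 9 here. The 700 kb before it held 24 regions, of which 1 was WT-only at 0 h, and the 700 kb after it 27, of which 3 were WT-only. Peaks per 10000 listed at 0 h were 5.52 and 5.17 in WT and 5.28 and 5.42 in DKO before it, and 7.37 and 6.46 in WT and 6.27 and 6.37 in DKO after it. The genotypes overlapped in the stretch before, and in the stretch after both WT values were above both DKO values. At 72 h the shares were 3.46 and 6.01 in WT and 4.84 and 3.70 in DKO before it, and 7.50 and 7.89 in WT and 6.77 and 8.62 in DKO after it, and the genotypes overlapped in both. These differences between stretches were not tested. The 0 h values of the stretch itself entered its choice, so nothing is read from setting them beside those of its neighbours.

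**Figure D3:**
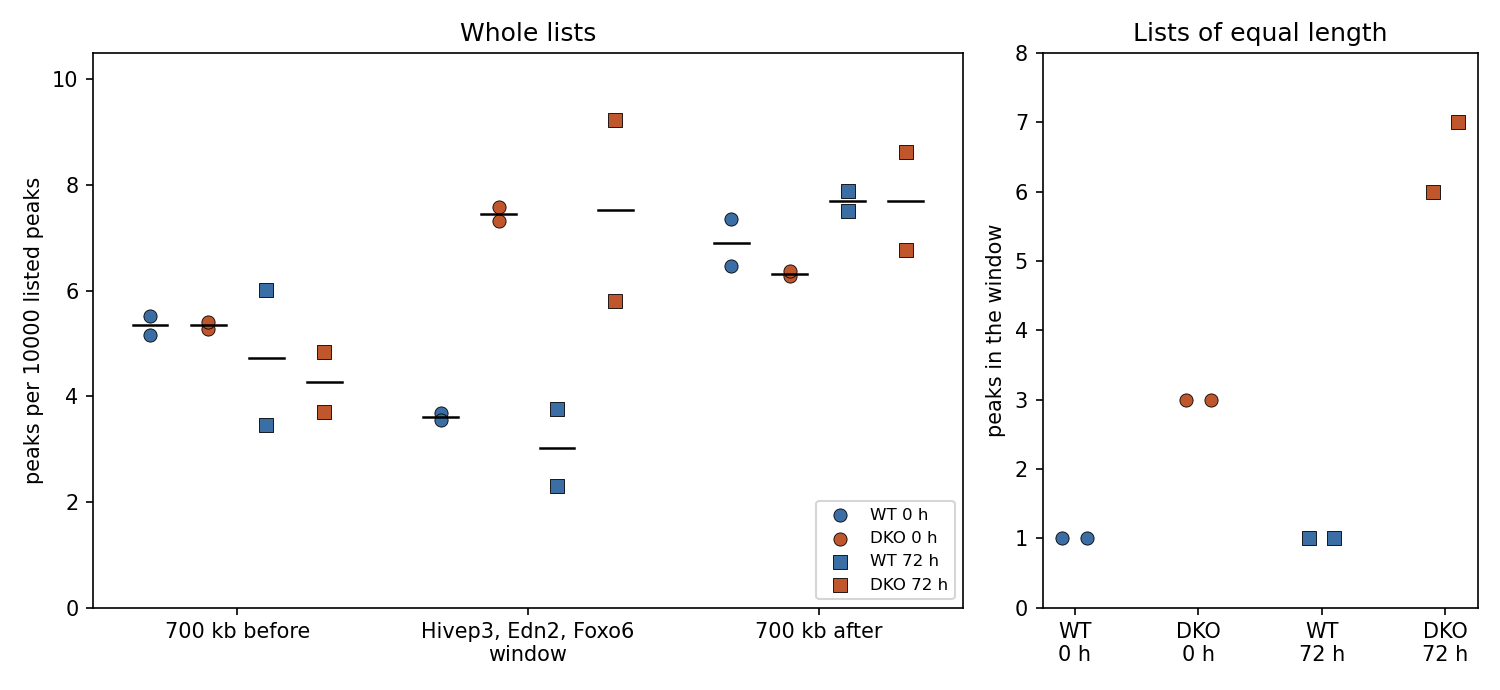
On the left, the y axis gives peaks per 10000 listed peaks in the stretch and in the 700 kb before and after it, with 1 point per library (circles 0 h, squares 72 h, blue WT, orange DKO) and a line at the mean of 2. On the right, the y axis gives the number of peaks in the stretch with every list shortened to its 10339 strongest peaks. In the stretch the WT points lie at 2.31 to 3.76 and the DKO points at 5.80 to 9.24, and on the right every WT library holds 1 peak.

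The regions around the bounds of the stretch were shared sites. The first inside was region 1 and the last inside region 26. Just outside lay chr4:119339992-119340576, with 0 h folds of 6.44 and 6.49 in WT and 6.82 and 5.78 in DKO, and chr4:120053480-120054228, with 13.5 and 13.7 in WT and 14.8 and 13.5 in DKO. The genotypes overlapped at both outer regions.

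Region widths ran from 260 to 1067 bp with a median of 665 bp, against 747 bp over the series, and gaps between neighbouring regions from 1.33 to 87.7 kb with a median of 13.3 kb. In the 21 regions found in 2 or more libraries the summits spanned a median of 108 bp, against 122 bp over the series. The widest span was 297 bp, in region 22, so peaks merged there need not mark a single site. There were 5 regions found in 1 library each. Besides region 3 these were region 7, chr4:119609883-119610142 (5.48), and region 12, chr4:119727877-119728358 (4.94), in DKO replicate 2 at 0 h, and region 13, chr4:119730168-119730537 (4.07), and region 15, chr4:119779449-119779758 (4.07), in DKO replicate 1 at 0 h. In all, 13 of the 26 regions had no peak in any WT library, against 9.07% of the regions of the series, and 0 had no peak in any DKO library, against 14.1%. Apart from region 3, the 13 regions all had a DKO peak at 0 h. These shares therefore largely restate the choice of the stretch, and nothing is read from them.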

How the data were processed

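Peak lists in narrowPeak format, 1 per library and not pooled, were used for 8 CTCF libraries and 1 IgG library. The submitters' processing notes name the build mm9 and the tools FastQC, Bowtie2 2.2.5 and MACS2 2.1.1, while neither a control nor a calling threshold is given in those sources. The deposited fold column is a ratio of enrichment over local background. Values of −log10 p and −log10 q per peak were deposited as their caller gave them, and the deposited score is 10 times the −log10 q cut to a whole number and was not used. The deposited summit column gives the distance from the peak start in bp.

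Peaks on the 19 autosomes and X were merged across libraries at 1 bp of overlap with Python 3.11.15 and pandas 2.3.3. Rank percentiles were taken within each list from −log10 p, with 100 the strongest. Merging and permutation steps were tested on simulated data. Groups and replicate numbers came from the sample titles. The stretch, its genes and the measures were chosen with earlier results of these data known. Regions named with values are those specific to a genotype, those in all 8 libraries and the 3 of highest mean rank percentile, and the other regions in all 4 libraries at 0 h, region 20 and those in 1 library were added after their values were seen. The planned test of 72 h against 0 h is not reported, as the 0 h values entered the choice of the stretch. Peak numbers, the share of each list, tiles and equal-length counts were computed from the lists as described beside them. Alternatives were lists of equal length (the shortest of the 4 lists compared, and, added after the values were seen, the shortest of all 8), a minimum −log10 q of 5, shared sites defined by 50% overlap of the shorter peak or by summits within 100 bp, a stretch widened by 100 kb on each side, each library left out, and a block by replicate number. Each permutation p-value given follows from the order of the 4 libraries compared and does not measure their spread. These permutation tests of genotype at 72 h were not planned. Differences between these libraries may be technical. No sequence is shown, since a genome of mm9 was not used here.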

Additional observations from a re-analysis of the deposited data

How the results depend on the processing

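The 9 DKO-only regions at 0 h numbered 2 with all 8 lists shortened to 10339 peaks, a length added after the values were seen, and 7 to 11 under the other settings, among them equal lists of 30309 peaks (9). WT-only regions at 0 h numbered 0 under each setting tried. Leaving out single libraries gave 9 to 11 DKO-only and 0 WT-only regions at 0 h. At 72 h it gave 1 to 6 DKO-only and 0 to 2 WT-only regions, and in WT 2 to 7 regions only at 0 h and 0 to 1 only at 72 h. In DKO these were 7 to 15 and 0 to 1. With the 4 lists compared at equal length (10339 peaks, or 17335 within WT), DKO-only regions at 72 h numbered 4, regions only at 0 h numbered 0 in WT and 1 in DKO, and those only at 72 h 1 in WT and 3 in DKO. With all 8 lists at 10339 peaks, both WT counts were 0. With −log10 q of at least 5, WT-only regions at 72 h numbered 1. The 72 h minus 0 h difference in peaks per 10000 turned from -0.261 to 1.69 with all 8 lists at 10339 peaks, was -1.33 with −log10 q of at least 5, and ran from -1.12 to 0.598 when single libraries were left out. The cause of these shifts was not tested. With a replicate block (4 pairs of the same genotype and replicate number) the difference was -0.261. The labels do not pair the libraries, and replicate deviations correlated at 0.0147 in WT and 0.0209 in DKO between times, over 9591 regions. List length limits what an absent peak shows, above all in DKO replicate 1 and WT replicate 1 at 72 h.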
